A study of Mus musculus with 6 samples.

Results

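A group of 10 genes known as targets of let-7 microRNAs and as regulators of growth and fetal development was followed in testes of newborn mice. The 10 genes were chosen by symbol (Hmga1, Hmga2, Igf2bp1, Igf2bp2, Igf2bp3, Trim71, Arid3a, Arid3b, Nr6a1 and E2f5), and each matched 1 of the 54232 genes in the count table. RNA was sequenced from whole testes at postnatal day 4, in 3 samples labelled cKO (conditional knockout) for Dis3l2 and 3 labelled WT, all of the strain given as B6D2F1. The comparison asks which genes are expressed at another level when Dis3l2 is deleted. Which exons were removed, and by which Cre, is not stated in the labels. Nor do they state that each sample was another animal, so p-values cover the spread among the samples used, which may be technical.

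The let-7 microRNAs are a family of small RNAs that rise as animal tissues mature and lower the output of mRNAs carrying matching sites in their 3′ untranslated regions (UTRs). Many of their targets are fetal genes of growth and stem cell identity. LIN28 proteins block let-7 maturation, in part by recruiting uridylyltransferases to the let-7 precursor, and DIS3L2 is the exonuclease that degrades the uridylated precursor. The testis of a newborn mouse has no spermatocytes yet, and its germ cells lie in cords of Sertoli cells.

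The sequences below show what the genes share. In the RefSeq table (GRCm38.p6), 11 mature microRNA names carry the same seed, bases 2 to 8, which is in capitals in these 4 examples, written 5′ to 3′. The 4 differ from each other outside the seed.
let-7a-5p: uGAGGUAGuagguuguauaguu
let-7d-5p: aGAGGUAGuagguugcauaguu
let-7g-5p: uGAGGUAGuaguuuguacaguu
miR-98-5p: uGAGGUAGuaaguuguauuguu

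The DNA letters that pair with bases 2 to 8 are CTACCTC. Matches were searched on the transcript strand of the longest annotated 3′ UTR of each gene (GENCODE M21 models, GRCm38). A match was 8 bases long (CTACCTCA, the seed match followed by an A) or 7 bases long (CTACCTC, or TACCTCA), and overlapping letters of 1 site were counted once. All 10 genes held at least 1 match, 7 of them an 8-base match, and let-7 sites are part of why these genes are known as targets. The lines below give the first 8-base match of each gene after its stop codon, or the first 7-base match where it had none. Capitals mark the match at the 3′ end of a 30-base window of the annotated 3′ UTR.
Trim71, chr9:114512472-114512501, minus strand: aaagtacaacattgcctaagtcCTACCTCA
Nr6a1, chr2:38727449-38727478, minus strand: tccataatgttgacaaagacaaCTACCTCA
Arid3b, chr9:57792443-57792472, minus strand: aaaggagattgatgcacagaattTACCTCA
Arid3a, chr10:79953888-79953917, plus strand: cacatgcaaggcaagtttctttCTACCTCA
Igf2bp1, chr11:95961778-95961807, minus strand: aggcagtgctgtgcgaagtaaaCTACCTCA
Igf2bp2, chr16:22059473-22059502, minus strand: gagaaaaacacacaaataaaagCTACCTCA
Igf2bp3, chr6:49086787-49086816, minus strand: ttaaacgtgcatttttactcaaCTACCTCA
Hmga1, chr17:27563269-27563298, plus strand: ccatcttctcctctgttcacaaaCTACCTC
Hmga2, chr10:120364224-120364253, minus strand: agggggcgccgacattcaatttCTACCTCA
E2f5, chr3:14605721-14605750, plus strand: ccatggaaacttgggactattatCTACCTC

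Counting depth was 26126694 to 35390560 reads assigned to genes in the cKO libraries and 35750784 to 43265614 in the WT libraries. The targeted gene did not check the labels: Dis3l2 had 30.6, 31.0 and 33.6 CPM in cKO testes and 32.8, 31.0 and 32.1 CPM in WT testes, and a count over the whole gene includes exons outside a deleted part. CPM is the read count scaled to a common library size by the TMM method. Germ cell markers were lower in cKO testes, with 17 of 20 past the threshold (adjusted p under 0.05 in the edgeR quasi-likelihood test), 0 higher and a median log2 fold change of -0.76. Their summed level was 866 to 925 CPM in cKO libraries and 1537 to 1617 CPM in WT libraries. Summed somatic markers were 6446 to 7153 CPM in cKO and 5589 to 5799 CPM in WT for 12 Sertoli cell genes, 634 to 751 CPM in cKO and 584 to 594 CPM in WT for 8 Leydig cell genes, and 115 to 116 CPM in cKO and 83.5 to 93.8 CPM in WT for 8 macrophage and leukocyte genes. The 7 endothelial genes summed to 619 to 683 CPM in cKO and 578 to 601 CPM in WT. The 10 stroma and peritubular myoid genes summed to 13044 CPM in cKO replicate 1, 9588 and 9676 CPM in the other cKO libraries and 12352 to 13302 CPM in WT. Sums over 4 erythroid genes were 28.1 to 38.9 CPM in cKO and 25.6 to 47.9 CPM in WT, and those over 7 duct epithelium genes 34.1 to 43.6 CPM in cKO and 51.7 to 58.0 CPM in WT. Sums are led by the most abundant genes. As higher, 4 of 12 Sertoli cell, 4 of 8 Leydig cell, 4 of 8 macrophage and leukocyte and 1 of 7 endothelial genes passed. As lower, 2 of 10 stroma and peritubular myoid and 2 of 7 duct epithelium genes passed. Over all genes kept after a filter on low counts, 3.4% passed as higher and 4.94% as lower. The Sertoli cell genes had log2 fold changes from 0.07 to 0.33, and 8 did not pass. No listed marker of these cell types was at 0 in every library. In whole testes, fewer cells of a type and less RNA per cell cannot be told apart.

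Of the 10 genes, 4 fell in cKO testes, 0 rose and 6 did not pass the test. Among the 20153 genes kept after a filter on low counts, 8.34% passed in either direction, 4.94% as lower and 3.4% as higher. The median log2 fold change (cKO over WT) of the 10 genes was -0.25, against 0.01 over all genes kept. The genes that fell were Nr6a1, Arid3b, Trim71 and Igf2bp1. Read by class from general knowledge, both genes taken as enriched in germ cells (Trim71 and Nr6a1) fell, and 0 of the 4 taken as somatic or broadly expressed (Hmga1, Hmga2, Igf2bp2 and E2f5) passed. Of the 4 left unassigned (Igf2bp1, Igf2bp3, Arid3a and Arid3b), 2 fell. These classes were set with earlier results of these data known, so the split by class is not a test. They were not measured in the whole-testis libraries. The germ cell markers were lower in the same libraries, and each gene is set against them further on.

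**Figure D1:**
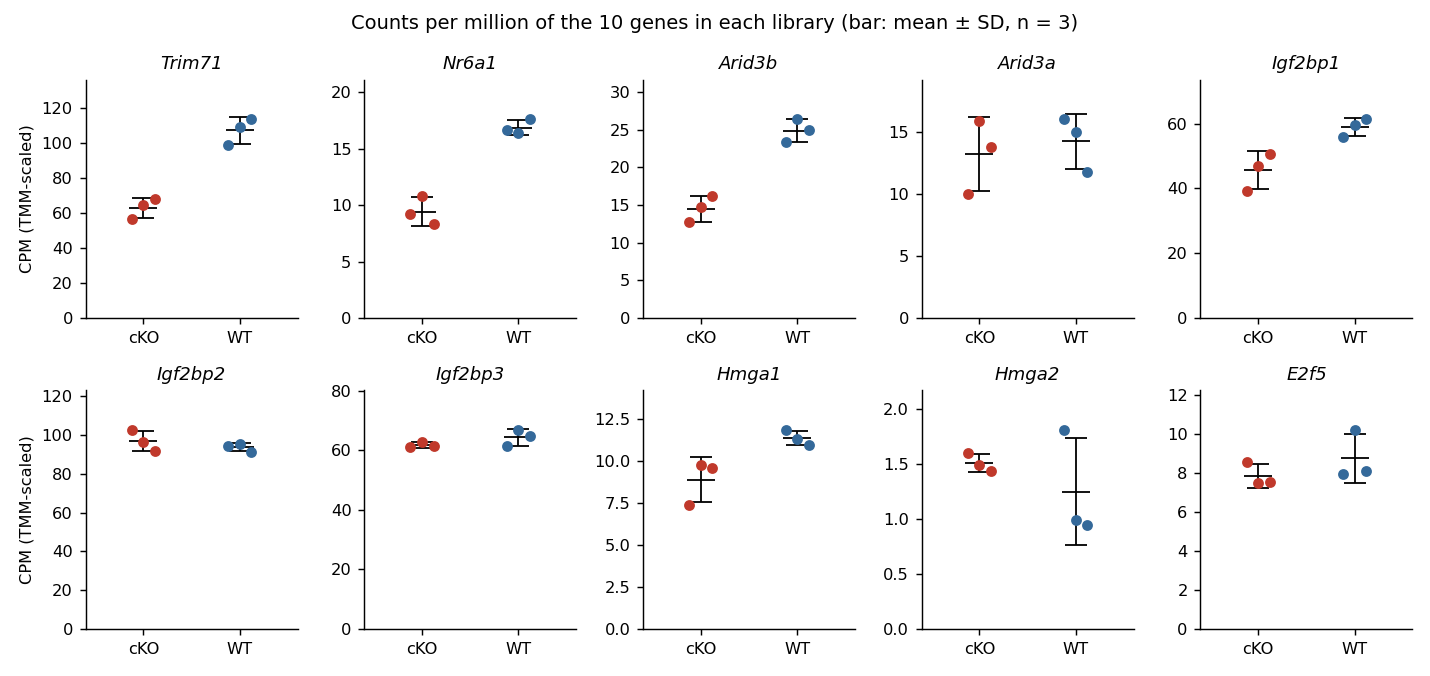
TMM-scaled CPM of the 10 genes in each library, cKO (red) and WT (blue), with bars for the mean ± SD of 3 libraries. The cKO points of Trim71, Nr6a1, Arid3b, Igf2bp1 and Hmga1 all lie below the WT points, and those of the other 5 genes overlap with them. Over all genes kept, the groups did not overlap in 28.2%, and in 14.6% every cKO library was below every WT library.

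Trim71 encodes an RNA-binding ubiquitin ligase of stem and germ cells, the mammalian relative of LIN-41, a let-7 target first known from Caenorhabditis elegans. The gene lies on chromosome 9, 114507133 to 114564369 (GRCm38, minus strand). It had 56.7, 64.8 and 67.8 CPM in cKO testes, against 98.8, 109 and 113 CPM in WT testes. Every cKO library was below every WT library. The means were 63.1 ± 5.75 CPM in cKO and 107 ± 7.55 CPM in WT (SD, n = 3 each), and the log2 fold change was -0.76 (SE 0.08, edgeR adjusted p = 0.000104).

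Nr6a1, also called germ cell nuclear factor, encodes an orphan nuclear receptor that represses the pluripotency gene Pou5f1 in the mouse embryo. It lies on chromosome 2, 38723370 to 38927688 (minus strand). Nr6a1 had 9.18, 10.8 and 8.31 CPM in cKO testes, against 16.7, 16.3 and 17.6 CPM in WT testes. The groups did not overlap, and the highest cKO library stayed well below the lowest WT library. The log2 fold change was -0.84 (SE 0.11, edgeR adjusted p = 0.0007), the lowest fitted value of the 10 genes. Pou5f1 fell as well, by 0.93 on the log2 scale (SE 0.13, edgeR adjusted p = 0.000988). Its log2 fold change lies within the range of the germ cell markers (-1.21 to -0.36), and a link to Nr6a1 was not tested.

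The ARID3 proteins are DNA-binding transcription factors with an AT-rich interaction domain. Arid3b (chromosome 9, 57790353 to 57836793, minus strand) had 12.7, 14.7 and 16.1 CPM in cKO testes, against 23.3, 26.3 and 24.99 CPM in WT testes. Its groups were apart, with a log2 fold change of -0.77 (SE 0.10, edgeR adjusted p = 0.000645). Arid3a (chromosome 10, 79927043 to 79955018, plus strand), known from B cells as Bright, had 9.98, 15.9 and 13.7 CPM in cKO testes and 15.97, 14.97 and 11.7 CPM in WT testes. The Arid3a groups overlapped and spread widely. Its log2 fold change was -0.10 (95% interval -0.45 to 0.24, edgeR adjusted p = 0.763), and without cKO replicate 1 it was 0.05.

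The IGF2BP proteins bind mRNAs, among them that of Igf2, and affect their stability, location and translation. Igf2bp1 (chromosome 11, 95957163 to 96005940, minus strand) had 39.2, 47.0 and 50.7 CPM in cKO testes, against 55.9, 59.7 and 61.3 CPM in WT testes. All cKO libraries were below all WT libraries, with cKO replicate 1 the lowest. That library also had the highest stroma marker sum of the cKO libraries, and the part of this in the result was not tested. Igf2bp1 fell by 0.37 on the log2 scale (SE 0.09, edgeR adjusted p = 0.0225). The edgeR call was lost without cKO replicate 2 (adjusted p = 0.0763) or without WT replicate 1, 2 or 3 (0.0642, 0.118 and 0.109), while the log2 fold change stayed between -0.45 and -0.27.

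Igf2bp2 (chromosome 16, 22059009 to 22163299, minus strand), a gene whose transcription HMGA2 is known to raise in mouse embryos, had 103, 96.3 and 92.0 CPM in cKO testes and 94.4, 95.6 and 91.4 CPM in WT testes. The ranges overlapped, and the log2 fold change was 0.05 (95% interval -0.08 to 0.17, edgeR adjusted p = 0.689). Igf2bp3 (chromosome 6, 49085223 to 49214957, minus strand), which is best known from fetal tissues and tumours, had 60.9, 62.8 and 61.5 CPM in cKO testes and 61.3, 66.7 and 64.9 CPM in WT testes. Its log2 fold change was -0.06 (95% interval -0.19 to 0.07, edgeR adjusted p = 0.615). Both intervals were narrow and held 0. Part of the Igf2bp3 exons (18.7% of their length) lies opposite exons of Malsu1 on the other strand, and the authors counted reads by strand, per the file headers.

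The HMGA proteins are small chromatin proteins that bend AT-rich DNA and are abundant in dividing fetal cells. Hmga1 (chromosome 17, 27556497 to 27563674, plus strand) had 7.35, 9.74 and 9.57 CPM in cKO testes, against 11.8, 11.3 and 10.96 CPM in WT testes. The groups did not overlap, as in 28.2% of all genes kept, and the log2 fold change of -0.35 (95% interval -0.62 to -0.08) did not pass (edgeR adjusted p = 0.106). The Hmga1 transcript has a near-identical copy, Hmga1b (99.6% identity over 100% of the transcript), and reads that map to both places are by default left uncounted, so its level is uncertain. When the counts of both were added, which was decided with the values in view, the levels were 11.7, 16.7 and 16.6 CPM in cKO and 18.7, 18.5 and 19.1 CPM in WT (log2 fold change -0.31, edgeR adjusted p = 0.148).

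Hmga2 (chromosome 10, 120361275 to 120476469, minus strand), whose loss gives the pygmy mouse, was the lowest of the genes. It had 42, 51 and 50 counts in the cKO libraries and 76, 43 and 34 counts in the WT libraries, or 1.6, 1.49 and 1.43 CPM in cKO and 1.81, 0.990 and 0.948 CPM in WT. WT replicate 1 was above the other 5 libraries and the other WT libraries below them. The log2 fold change of 0.26 had a 95% interval from -0.40 to 0.92 (edgeR adjusted p = 0.666). Without WT replicate 1 the log2 fold change was 0.63 (edgeR adjusted p = 0.278), and without WT replicate 2 or 3 it was 0.12 or 0.11.

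E2f5 (chromosome 3, 14578641 to 14606309, plus strand) encodes a mostly repressive E2F factor that works with pocket proteins in cell cycle exit. It had 8.53, 7.46 and 7.51 CPM in cKO testes and 7.92, 10.2 and 8.09 CPM in WT testes. The groups overlapped, with a log2 fold change of -0.16 (95% interval -0.45 to 0.12, edgeR adjusted p = 0.520). Without WT replicate 2, the highest library, it was -0.03.

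**Figure D2:**
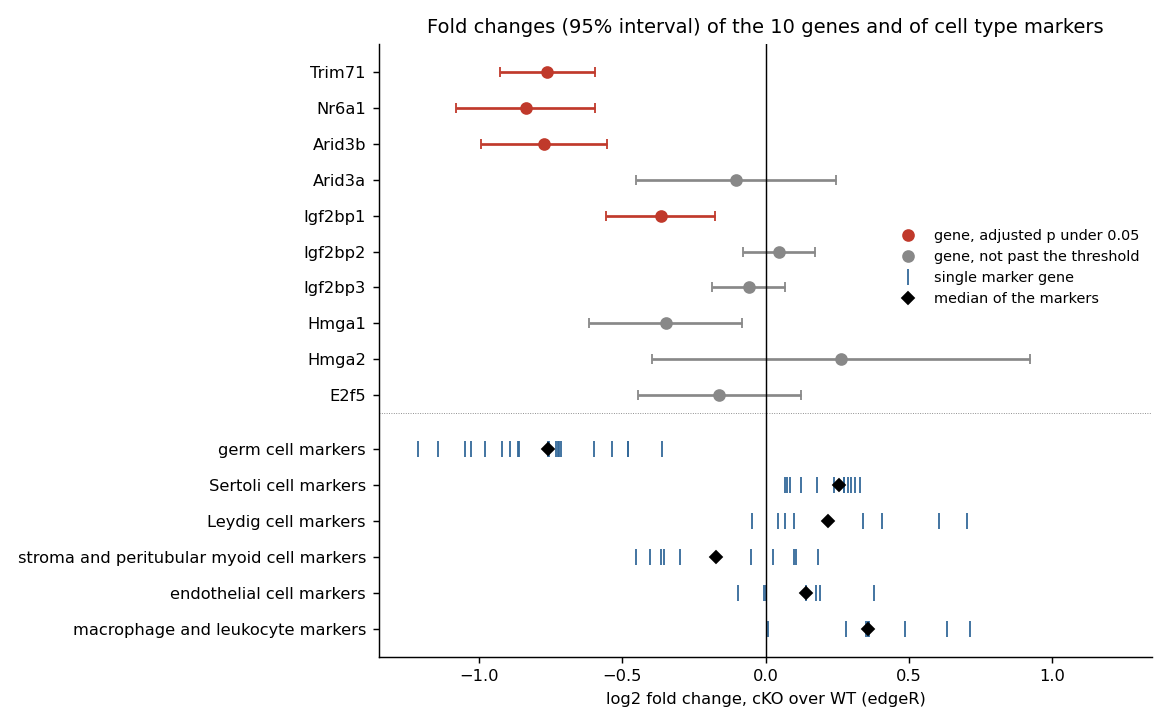
Log2 fold changes, cKO over WT, of the 10 genes with 95% intervals (top), and of single cell type marker genes with the list median (bottom). The genes that passed lie between -0.84 and -0.37, within the range of the germ cell markers (-1.21 to -0.36, median -0.76). Igf2bp1 (-0.37) lies at the upper end of that range, which is set by the marker Tdrd5 (-0.36). Igf2bp1 also lies within the range of the stroma and peritubular myoid markers (-0.45 to 0.18).

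To set levels of different genes side by side, CPM was divided by the summed exon length in kilobases. On this scale Igf2bp2 was highest at 13.1 ± 0.7 CPM per kb in cKO and 12.7 ± 0.3 CPM per kb in WT (SD, n = 3 each). Trim71 was next in WT, with 6.76 ± 0.62 CPM per kb in cKO and 11.5 ± 0.8 CPM per kb in WT. Igf2bp3 had 7.57 ± 0.12 CPM per kb in cKO and 7.88 ± 0.34 CPM per kb in WT. In cKO testes the mean of Igf2bp3 was thus above that of Trim71, and in WT testes it was below. Igf2bp1, Hmga1, E2f5, Arid3b, Arid3a and Nr6a1 followed in WT, from 6.09 to 1.56 CPM per kb, and Hmga2 came last at 0.223 ± 0.013 CPM per kb in cKO and 0.184 ± 0.072 CPM per kb in WT. Of neighbours in the WT order, Hmga1 and E2f5 had overlapping library ranges, and the others did not. The lengths count all annotated exons, retained introns included, so genes with many such models appear lower.

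Each gene was then read against the germ cell markers of its own library, as its log2 CPM minus the mean log2 CPM of the 20 markers. For Trim71 this value was 1.57 ± 0.08 in cKO and 1.55 ± 0.09 in WT (SD, n = 3 each), a difference of 0.03 (exact two-sided permutation p = 0.7). For Arid3b it was -0.54 ± 0.12 in cKO and -0.56 ± 0.06 in WT, a difference of 0.01 (exact two-sided permutation p = 0.8). For Nr6a1 it was -1.17 ± 0.16 in cKO and -1.12 ± 0.07 in WT, a difference of -0.05 (exact two-sided permutation p = 0.8). The groups overlapped for these 3 genes, and the sign of each difference turned without cKO replicate 3, to -0.02, -0.06 and 0.04, and those of Trim71 and Arid3b without WT replicate 1, to -0.02 each. With the median of the markers in place of their mean, the differences were 0.21 for Trim71, 0.19 for Arid3b and 0.13 for Nr6a1. With so few libraries such a p does not show that a gene and the germ cell markers changed alike.

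The other 7 genes were higher relative to germ cell markers in every cKO library than in any WT library, and so were 80% of all genes kept, while 0.452% were lower in every cKO library. Igf2bp1, which had fallen, stood at 1.10 ± 0.13 in cKO and 0.69 ± 0.06 in WT, a difference of 0.42. Hmga1 differed by 0.43, E2f5 by 0.64, Arid3a by 0.67, Igf2bp3 by 0.74, Igf2bp2 by 0.84 and Hmga2 by 1.11. The two-sided exact permutation test gave p = 0.1 for each, which 3 against 3 samples cannot go below.

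**Figure D3:**
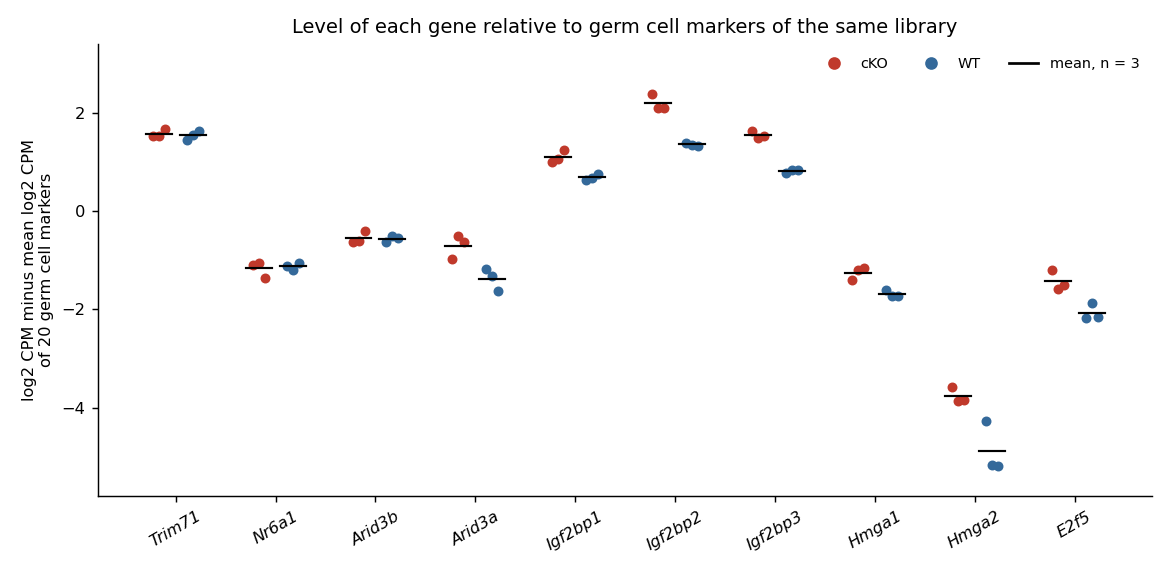
Log2 CPM of each gene minus the mean log2 CPM of 20 germ cell markers in the same library, for 3 cKO (red) and 3 WT (blue) libraries, with lines at the means. Trim71, Nr6a1 and Arid3b overlap between the groups, and the cKO points of the other 7 genes lie above their WT points.

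The number of let-7 seed matches differed widely among the 10 genes. Nr6a1 held 8 in a 3′ UTR of 4453 bases, Hmga2 7 in 3014 bases, and Trim71 6 in 5512 bases, of which 4 were 8-base matches. Arid3b held 5 in 2160 bases, Igf2bp1 5 in 6337 bases and Arid3a 4 in 3082 bases. Igf2bp2 held 2, and Igf2bp3, Hmga1 and E2f5 held 1 each. As many matches as in Nr6a1 were found in 0% of 1162 other genes whose 3′ UTR length was within a factor of 0.8 in either direction, as many as in Hmga2 in 0.098% of 2037, as in Arid3b in 0.081% of 2473 and as in Trim71 in 0.279% of 718. The single match of E2f5 was shared by at least as many in 6.46% of 1734 genes of like length, and those of Hmga1 and Igf2bp3 in 13.7% of 2347 and 23.6% of 2484.

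The 4 genes that fell held 5 to 8 matches. Hmga2, with 7, had a fitted value above 0, and Arid3a, with 4, had overlapping groups. Among all 15191 genes kept with an annotated 3′ UTR, 16.7% held at least 1 match. Their median log2 fold change was 0.00, with 7.12% lower and 4.03% higher, against a median of 0.00, with 5.91% lower and 3.96% higher, for the genes without a match. The 96 genes with 3 or more matches, 6 of the 10 genes among them, had a median of -0.02, with 11 (11.5%) lower and 5 (5.21%) higher. Those 11 include the 4 of the 10 genes that fell, so this class is not a separate background for them. The 3′ UTRs of genes with 3 or more matches were longer, at a median of 5053 bases, than those of genes without a match, at 972 bases. Matches are letters in the annotation and were not measured as binding.

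**Figure D4:**
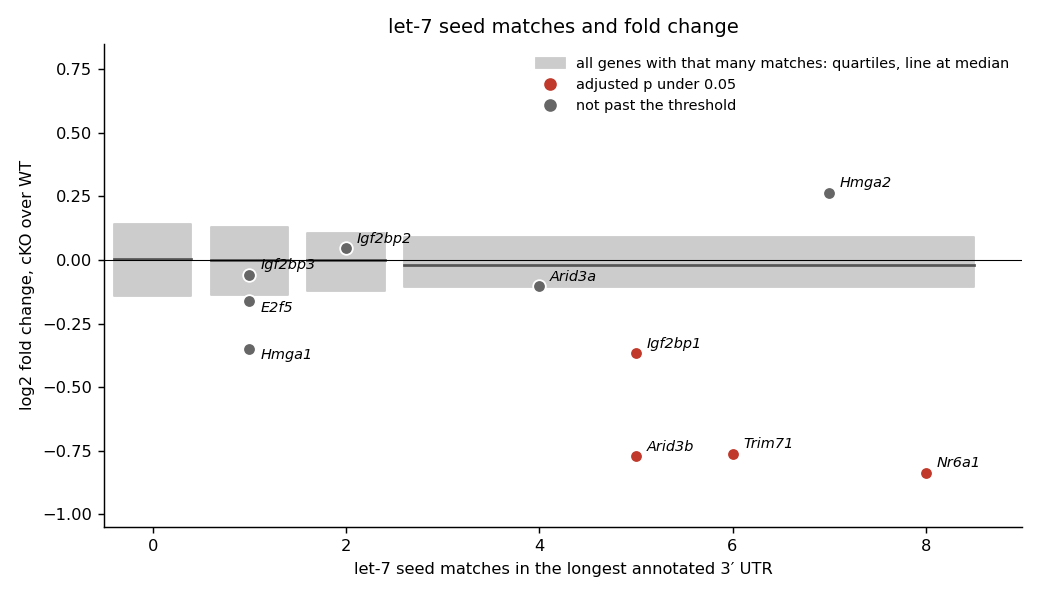
Log2 fold change, cKO over WT, against the number of 7- or 8-base let-7 seed matches in the longest annotated 3′ UTR, for the 10 genes (points) and for all genes with that many matches (grey: quartiles, line: median; 3 or more pooled). The 4 genes past the threshold hold 5 to 8 matches, and Hmga2 with 7 lies above 0.

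Among 26 other known let-7 targets, 5 fell, 0 rose and 21 missed the threshold, where 4.94% of all genes kept fell. Their median log2 fold change was -0.09, against 0.01 over all genes kept. Lin28b, which encodes the nuclear LIN28 protein, had 4.65, 5.32 and 3.64 CPM in cKO testes, against 10.3, 10.02 and 10.1 CPM in WT testes. The log2 fold change was -1.16 (SE 0.14, edgeR adjusted p = 0.000468). Lin28b thus lay within the range of the germ cell markers (-1.21 to -0.36), and the part of germ cells in its fall was not tested. Its paralog Lin28a had 13.3, 18.6 and 20.3 CPM in cKO and 22.5, 22.7 and 22.1 CPM in WT, and its log2 fold change of -0.36 did not pass in edgeR (adjusted p = 0.112) but did in DESeq2 (0.0440), with no filter on low counts (0.0119) and without cKO replicate 3 (0.0402). It did not pass without any of the other 5 libraries (edgeR adjusted p = 0.114 to 0.289), and without cKO replicate 1 its log2 fold change was -0.21. The cyclin gene Ccnd1 (-0.28), the replication helicase-nuclease gene Dna2 (-0.37) and Dicer1 (-0.23), which encodes the nuclease that makes mature microRNAs, fell in the same test. Ccnd1 lost its call without cKO replicate 2 or WT replicate 1 or 2 (highest edgeR adjusted p = 0.120), and Dicer1 without cKO replicate 2 or any WT library (0.112). Dna2 lost it without cKO replicate 3 or any WT library (0.190) and in the fit with replicate numbers as a block (0.0659). The remaining targets that did not pass included Myc (-0.03), Mycn (0.02), Nras (-0.12), Igf1r (-0.05) and the cell cycle and replication genes Ccnd2 (-0.06), Cdk6 (-0.18), Cdc25a (-0.14), Cdc34 (-0.04) and Rrm2 (-0.16).

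The 19 measured genes of let-7 processing had a median log2 fold change of -0.05, and 3 of them fell, 1 rose and 15 missed the threshold. Over all genes kept, 4.94% fell and 3.4% rose. Beside Lin28b and Dicer1, which also stand among the targets, Tut1, a nuclear uridylyltransferase, fell by 0.30 on the log2 scale (edgeR adjusted p = 0.0145), and the RNA helicase gene Ddx17 rose (0.17, edgeR adjusted p = 0.0345). The Tut1 call was lost without cKO replicate 2 or any WT library (highest edgeR adjusted p = 0.109). Ddx17 passed without cKO replicate 1 but lost its call without each of the other 5 libraries (highest edgeR adjusted p = 0.175) and when low counts were not filtered (0.139). The uridylyltransferase genes Tut4 (-0.07) and Tut7 (0.12), which act on let-7 precursors, did not pass, nor did Drosha (-0.15). Of the 12 let-7 and miR-98 precursor genes only Mirlet7f-1 was kept by the filter, with 7, 18 and 5 counts in cKO libraries and 32, 16 and 24 counts in WT libraries. Its groups overlapped (log2 fold change -0.92, edgeR adjusted p = 0.341). Counts over these loci are not levels of mature let-7, which was not measured.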

How the data were processed

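The deposited table holds raw counts of reads per gene, made by the authors with featureCounts 1.6.4 on GENCODE M18 gene models, on the gene's strand and not as pairs, per the file headers. The labels describe depletion of ribosomal RNA yet name polyadenylated RNA as the molecule, and which holds was not resolved. Reads mapping to several places or lying over several genes were by default not counted. Cutadapt, HISAT2 and GRCm38.p5 are named in the submitters' processing notes, without tool versions. The exon length per gene (other values of the deposited table) was used only for CPM per kb. Of 54232 genes, 54165 were named from GENCODE M21, and 0 columns were left without a sample.

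The filterByExpr function (minimum count 10, minimum total 15) chose the genes kept, which were tested with the edgeR 4.0.16 quasi-likelihood test in R 4.3.3 (TMM, group as the only term, two-sided, WT as the base), adjusted by Benjamini-Hochberg over the 20153 genes kept. CPM uses TMM-scaled library sizes, and log2 CPM a prior count of 2. Standard errors and 95% intervals come from the quasi-likelihood F statistic. The exact permutation tests compare 3 with 3 samples. Near-identical transcripts were sought with minimap2 2.31-r1302, requiring 95% identity across 30% of the length. DESeq2 1.42.0, limma-voom (limma 3.58.1), the robust fit, other scalings and filters, a replicate block and each library left out in turn were the alternatives.

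The genes, classes and lists were chosen with earlier results of these data known. Named are the 10 genes, Dis3l2, Lin28a, Lin28b and, of each other list, the called genes with the lowest p (up to 6, for cell type markers up to 2, given here as sums); Tut4, Tut7, Drosha, Myc, Mycn, Nras, Igf1r, Ccnd2, Cdk6, Cdc25a, Cdc34, Rrm2 and Mirlet7f-1 were added after their values were seen. Of the other let-7 targets that were called, 1 is counted but not reported here by name. The fit was tested on simulated data, where 64% of 100 planted log2 changes of 0.5 and 87% of 100 planted changes of 1 were called. Of the calls there, 7.36% were not planted.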

Additional observations from a re-analysis of the deposited data

How the results depend on the processing

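The count of the 10 genes past the threshold was 4 under every scaling, filter and test tried and with the Hmga1 and Hmga1b counts added, and 3 to 4 with each library left out, Igf2bp1 being the gene lost. Over all genes, 1681 passed, 2137 did in DESeq2, and 623 to 3375 did with single libraries left out, the lowest without WT replicate 2 and the highest without cKO replicate 1. Among the 10 genes the count of calls was also 4 with the replicate number as a block, and 1798 genes passed over all. Same-numbered samples deviated together only weakly (correlations 0.0313, 0.0126 and 0.0652), each sample but WT replicate 2 correlating best with its own number, and the labels do not say that numbers pair samples. With single libraries left out, the log2 fold change of Arid3a ran from -0.258 to 0.0514, that of Hmga2 from 0.108 to 0.633, that of E2f5 from -0.227 to -0.0333, that of Igf2bp2 from 0.00214 to 0.0793, that of Igf2bp3 from -0.0919 to -0.0296 and that of Dis3l2 from -0.0578 to 0.0126. Relative to germ cell markers, the count of genes above in every cKO library was 7 with the other prior count, with library size alone and with each library left out, and 8 with the median of the markers, and the single differences of Trim71, Arid3b and Nr6a1 ran from -0.0179 to 0.0738, from -0.0580 to 0.0540 and from -0.105 to 0.0447 with libraries left out. With the median of the markers in place of the mean, that of Nr6a1 was 0.13. The cause of these shifts was not tested. At least 1 8-base let-7 match was found in 7 genes, and using all annotated 3′ UTRs left the count at 10. Hmga2 had the fewest counts of the 10 genes, 34 to 76 a library.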

Other observations

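Known partners of the 10 genes included RNAs that rose. Of 10 measured RNAs bound by IGF2BP proteins or known downstream of the 10 genes, 2 rose, 1 fell (Pou5f1, given above) and 7 did not pass. Over all genes kept, 3.4% rose and 4.94% fell. The growth factor gene Igf2 rose by 0.30 on the log2 scale (edgeR adjusted p = 0.0106) and the imprinted non-coding RNA H19 by 0.19 (edgeR adjusted p = 0.0240). Whether these rises relate to the 10 genes or to the cell makeup of the testes was not tested. Igf2 lost its call without WT replicate 2 or 3 (highest edgeR adjusted p = 0.0849) and H19 without cKO replicate 2 or WT replicate 1 or 2 (0.136).

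Of 13 measured paralogs of the 10 genes, 0 passed in edgeR, with log2 fold changes from -0.68 (Arid3c) to 0.15 and a median of -0.03. Over all genes kept, 8.34% passed in either direction. A count of 0 among so few genes, here and for the host genes below, is near that share. Arid3c had only 2, 15 and 10 counts in cKO libraries and 22, 18 and 14 counts in WT libraries. The other E2F genes, E2f1 to E2f4 and E2f6 to E2f8, lay between -0.15 and 0.09. Of the 3 measured host genes of let-7, 0 passed in edgeR: Mir99ahg, host of let-7c-1, stood at 0.30 (edgeR adjusted p = 0.125), Wdr82 at -0.06 and Huwe1 at -0.04.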
